A study of Mus musculus with 9 samples.

Results

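Chemokines and their receptors were followed across 9 spleen arrays. The 42 mouse genes, 26 ligands and 16 receptors, were taken by symbol from a list, and a probe belonged to a gene where the accession on the array mapped to that symbol. At least 1 probe was found for 41 of the 42, with 49 probes of 39429, and 37 of the 41 entered the tests, among 26325 genes or accessions tested. Ccl7, Ccl20 and Cxcl2 were too dim (well above background on 0, 0 and 1 of the 9 arrays), Ccr9 lacked a value on 2 arrays where its spots carried an outlier mark, and no probe was matched to Cxcl11. The 37 comprised 22 ligands and 15 receptors.

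The spleens were from female BALB/c mice, 3 samples to a group. Diseased mice had a normal selenium intake (normal Se GD) or a low one (low Se GD), where GD stands for Graves' disease, and the third group had a low intake and no disease (low Se non-GD). The title asks how selenium intake bears on Graves' disease, in which antibodies stimulate the thyrotropin receptor. The labels used here do not give how the disease was brought about, what the diets held or how old the mice were. No group joined a normal supply to the absence of disease, so selenium was compared within diseased mice only. Whether each sample is an animal of its own is not stated, so p-values reflect only the variation among these samples, which may be technical.

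Chemokines are small secreted proteins that guide leukocytes along concentration gradients, and they signal through G protein-coupled receptors on the cells they attract. In the spleen, homeostatic chemokines made by stromal cells keep B cells in follicles and T cells in the T cell zone, whereas inflammatory chemokines recruit monocytes, granulocytes and effector lymphocytes. Cxcl9, Cxcl10 and Cxcl11 are induced by interferons and share the receptor Cxcr3, and Cxcl1, Cxcl2 and Cxcl5 attract neutrophils through Cxcr2.

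Of the ligands the results turn on, Cxcl10, Cxcl9 and Cxcl1 lie on chromosome 5, and the 250 bases before their transcription starts were searched for the motifs named below. The sequences are from RefSeq, build GRCm38.p6, whose table held promoters of 31 of the 42 genes. They run 5′ to 3′ on the strand of the gene, at chr5:92348890-92349139 (minus strand) for Cxcl10, chr5:92328080-92328329 (minus strand) for Cxcl9 and chr5:90890995-90891244 (plus strand) for Cxcl1. Capitals mark matches, on either strand, to the core of the interferon-stimulated response element (GAAA, any 2 bases, GAAA), to a kappaB motif (GGGA, any 2 bases, TTCC) and to a gamma-activated site (TTC, any 3 bases, GAA).
Cxcl10: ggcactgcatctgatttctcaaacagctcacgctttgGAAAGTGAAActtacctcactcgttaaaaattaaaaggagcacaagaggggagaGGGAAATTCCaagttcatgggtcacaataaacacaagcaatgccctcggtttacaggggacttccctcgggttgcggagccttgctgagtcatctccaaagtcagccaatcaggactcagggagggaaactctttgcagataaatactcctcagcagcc
Cxcl9: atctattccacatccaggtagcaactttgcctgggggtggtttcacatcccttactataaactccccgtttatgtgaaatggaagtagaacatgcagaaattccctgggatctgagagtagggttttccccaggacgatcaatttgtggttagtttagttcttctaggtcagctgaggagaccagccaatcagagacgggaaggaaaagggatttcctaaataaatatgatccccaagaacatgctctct
Cxcl1: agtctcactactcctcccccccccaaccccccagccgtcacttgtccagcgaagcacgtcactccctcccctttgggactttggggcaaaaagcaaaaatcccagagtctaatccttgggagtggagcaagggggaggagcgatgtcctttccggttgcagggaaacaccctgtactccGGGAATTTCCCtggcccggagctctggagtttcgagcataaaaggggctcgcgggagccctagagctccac

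In Cxcl10 the first run of capitals, GAAAGTGAAA at bases 38 to 47, matched the interferon response core, and the second, GGGAAATTCC at bases 92 to 101, matched the kappaB motif. In Cxcl1 the capitals at bases 180 to 190 hold 2 overlapping kappaB matches, 1 on each strand. These letters are not in the Cxcl9 window. Of 32851 promoter windows of this length, 2.98% held the interferon response core, 1.21% the kappaB motif and 7.02% the gamma-activated site, and of the 31 genes with a promoter 3 (Ccl19, Cxcl10 and Cxcl14), 4 (Ccr3, Cxcl1, Cxcl10 and Cxcl2) and 2 (Ccr6 and Cxcl14) did, in that order. A match describes the letters and is not a measured binding site, and the lack of a match does not show that a site is absent.

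Levels below are log2 processed signals minus the 75th percentile of the same array, so that 0 is the level of that percentile, and they are compared between arrays for 1 gene only. Genes were tested with limma, and a gene was called where the p-value adjusted over all genes tested was under 0.05. Spots well above background made up 58.4% of the spots on normal Se GD array 3 and 72.6% to 82.6% on the other 8 arrays. By the scan times in the file headers the 3 low Se non-GD arrays were scanned with low Se GD array 1, low Se GD arrays 2 and 3 with normal Se GD arrays 1 and 2, and normal Se GD array 3 alone. Low Se GD array 2 lay between the other arrays of its group for 33 of the 37 genes, and low Se non-GD array 3 for 32 of 37, against 69% and 78.3% of 18538 genes above background on all arrays. Markers of B cells, T cells and marginal zone macrophages were well above background on all 9 arrays for 8 of 8, 9 of 9 and 4 of 4 genes, and red pulp macrophage markers for 6 of 7. The 28S ribosomal RNA probe Rn28s1 had log2 levels of 4.93 to 5.99 in normal Se GD, 3.003 to 5.59 in low Se GD and 0.45 to 0.83 in low Se non-GD spleens, a split along disease whose part in the differences between diseased and non-diseased spleens was not tested. In whole spleen, fewer cells of a type and less RNA per cell cannot be told apart.

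**Figure D1:**
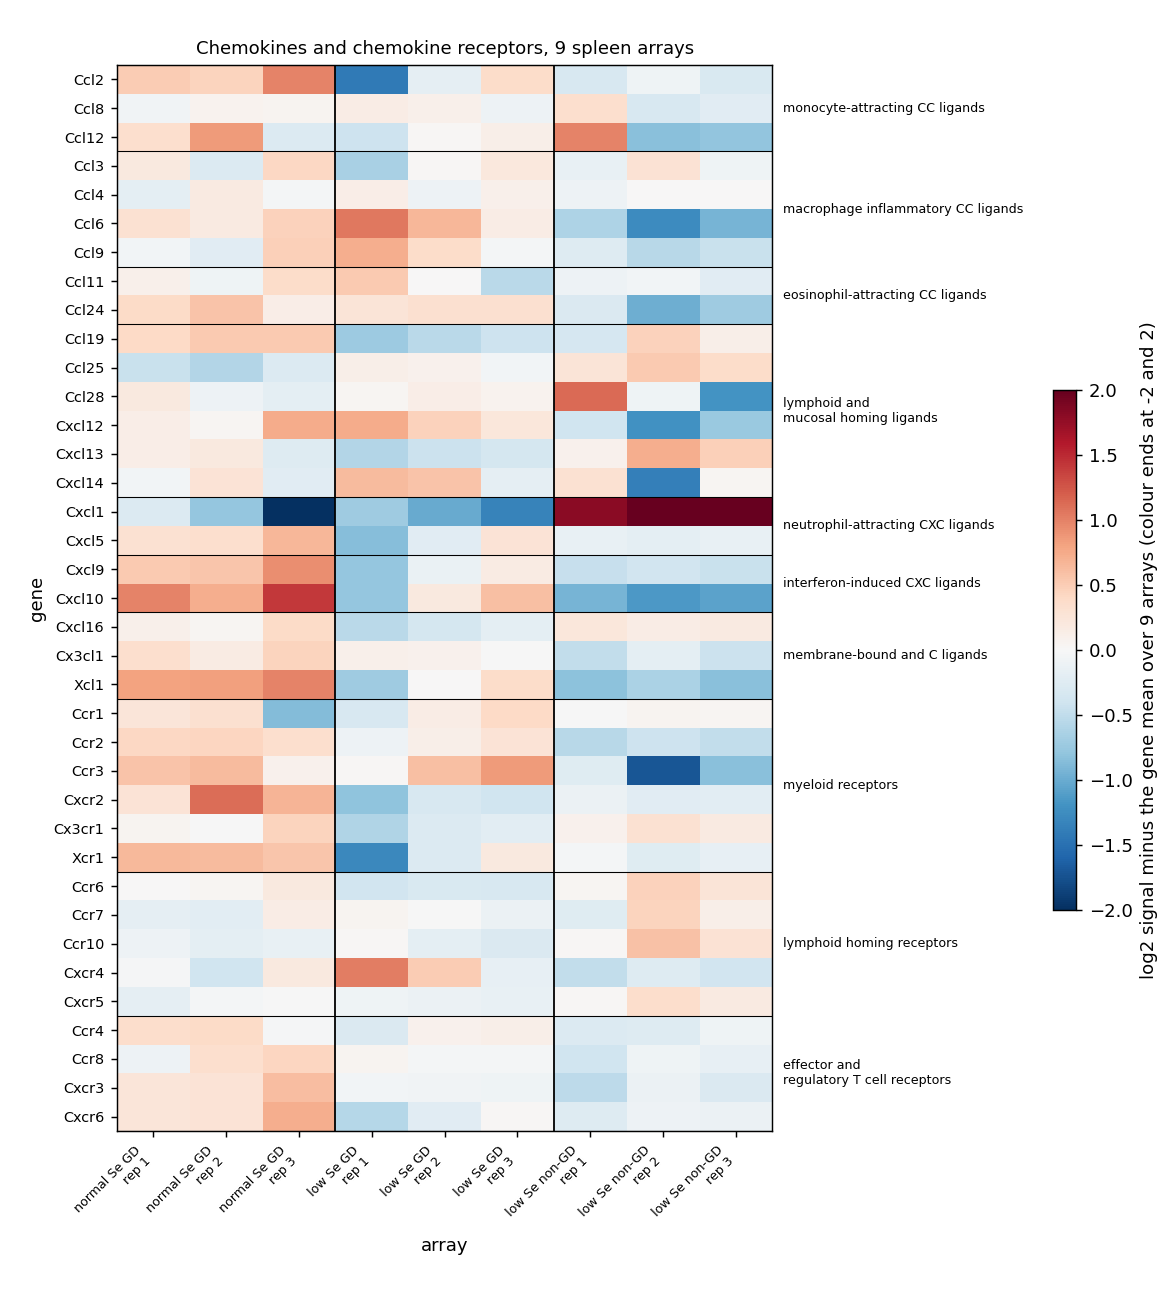
Each row is a tested gene and each column an array, with the groups normal Se GD, low Se GD and low Se non-GD from left to right. Colour is the log2 level minus the gene's mean over the 9 arrays and ends at -2 and 2, and horizontal lines part the role groups. Cxcl1 is red on the 3 low Se non-GD arrays and blue on the others, and low Se GD array 1 is blue for Ccl2, Xcl1 and Xcr1, where normal Se GD arrays are red.

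The first comparison sets diseased against non-diseased spleens at a low selenium supply. Of the 37 genes, 6 were higher in low Se GD than in low Se non-GD spleens. They were the myeloid ligand Ccl6, the eosinophil attractant Ccl24, the stromal ligand Cxcl12, the membrane-bound ligand Cx3cl1, and the receptors Ccr2 and Ccr3. Another 6 were lower, namely the T zone ligand Ccl19, the follicular ligand Cxcl13, Cxcl1, Cxcl16, and the receptors Ccr6 and Cx3cr1. The 12 calls were 32.4% of the 37, against 24.9% of all genes tested (12.8% higher and 12.2% lower). Groups did not overlap for 20 of 37 (54.1%), against 53% of all genes, with 29.5% above and 23.4% below, and the median log2 fold change was 0.12, against 0.08 over all genes. Without low Se GD array 2 the counts were 4 higher and 3 lower, where 13.1% of all genes were called, without low Se non-GD array 3 they were 4 and 1, where 13.5% were, and without both arrays 0 and 0, where limma called 1.02% of all genes. At an unadjusted p under 0.05 with all arrays, 10 were higher and 9 lower (27% and 24.3%), against 20.7% and 16.9% of all genes. Low Se GD array 1 alone, set against the non-diseased arrays of its scan, lay above them for 14 and below for 17 of the 37 (37.8% and 45.9%), against 43% and 31.6% of all genes, with 1 call in each direction (Cxcr4 and Xcr1), where 3.59% of all genes were called. That fit takes the lone array to vary like the others, so its calls have no replicate check in low Se GD spleens.

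Normal Se GD spleens were set against low Se GD spleens to compare selenium supplies within the disease. Limma called 0 of the 37 genes in either direction, against 1.27% of all genes, 257 higher (0.976%) and 77 lower (0.292%). With normexp background correction and quantile normalization the calls over all genes were 313 higher and 157 lower. They were 32 and 14 with quantile normalization alone, 2 and 1 with the authors' deposited log2 values and 0 and 0 with median scaling. At an unadjusted p under 0.05, 15 of the 37 were higher in normal Se GD spleens (40.5%, against 12.7% of all genes) and 1, Ccl25, was lower (2.7%, against 6.71%). The lowest adjusted p-values were those of the neutrophil receptor Cxcr2 (0.0504) and of Ccl19 (0.0521). All 3 normal Se GD arrays lay above all 3 low Se GD arrays for 16 of the 37 genes, 43.2% against 17.9% of all genes, and below them for Ccl25 alone, 2.7% against 11.4%. In either direction 29.4% of all genes did not overlap. The median log2 fold change was 0.25, against 0.00030 over all genes. Within the scan that held 2 arrays of each group, 21 of the 37 were above and 4 below without overlap (56.8% and 10.8%), against 45.8% and 23.3% of all genes, and the medians were 0.22 and 0.12. Ccl19 and Cxcl13 were called there, among 10.6% of all genes. Low Se GD array 1, from the other scan, was the lowest of its group for 14 of the 15 genes higher at an unadjusted p. Those genes were picked for low values in that group, and the array lay between the others of its group for 0 of the 37 genes. The part of the scan in the difference was not tested.

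Normal Se GD spleens were also set against low Se non-GD spleens, which differ in both disease and supply. Here 12 genes were higher and 2 lower. The 12 were Ccl6, Ccl24, the interferon-induced ligands Cxcl9 and Cxcl10, Cxcl12, Cx3cl1, the lymphotactin Xcl1, and the receptors Ccr2, Ccr3, Cxcr2, Cxcr3 and Cxcr6. The 2 that were lower were Cxcl1 and the gut-homing ligand Ccl25. The 14 calls were 37.8% of the 37, against 32.3% of all genes, and the higher and lower calls were 32.4% and 5.41%, against 18.9% and 13.4% of all genes. At an unadjusted p under 0.05, 15 were higher and 3 lower (40.5% and 8.11%), against 25.1% and 17.8%. Groups did not overlap for 21 of 37 (56.8%), against 49.1% of all genes, with 28% above and 21.1% below. The median log2 fold change was 0.43, against 0.06 over all genes. No scan held both groups. With the scan as a block, which reaches this comparison only through the low Se GD arrays, Ccl6, Ccr2, Cxcl1 and Ccl25 remained called and the other 10 genes did not, where 18.3% of all genes were called. Without low Se non-GD array 3 and low Se GD array 2, 3 genes were higher and 2 lower, among 11.6% of all genes. This comparison and the first share the low Se non-GD arrays, and the first and second share the low Se GD arrays.

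**Figure D2:**
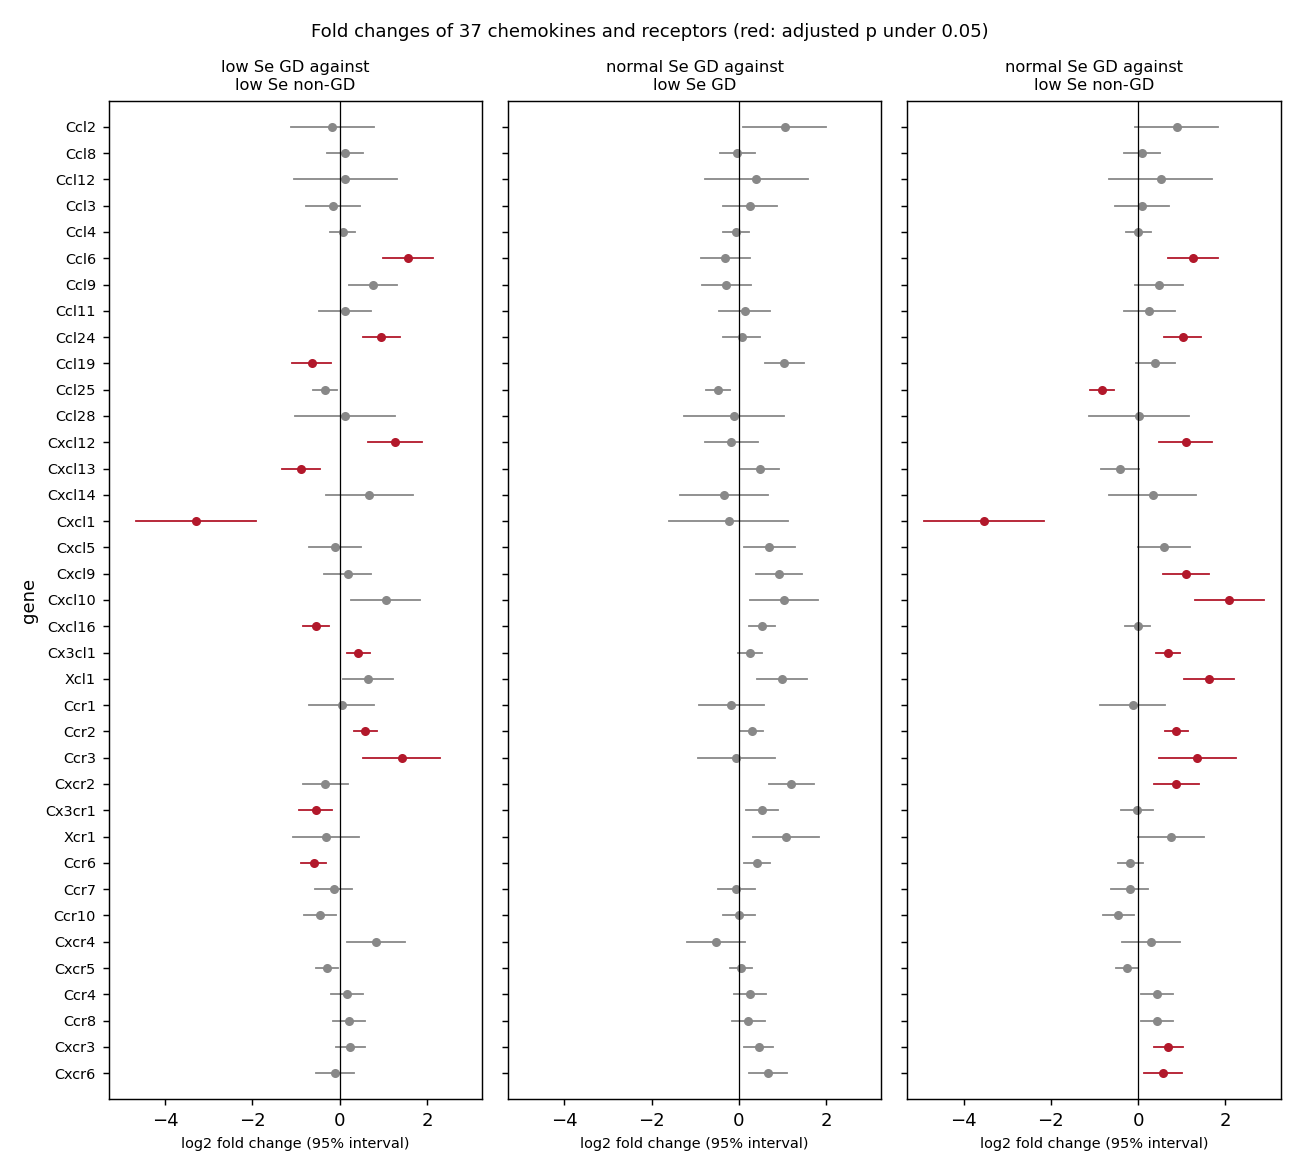
Log2 fold changes of the 37 tested genes (points) with their 95% intervals (lines) in the 3 comparisons, on 1 common horizontal scale, with genes in order of role from top to bottom. Red marks an adjusted p under 0.05, which 12, 0 and 14 genes reached from left to right, and Cxcl1 lies far to the left in the outer panels.

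Among the ligands that attract monocytes through Ccr2, Ccl2, Ccl8 and Ccl12 were tested and Ccl7 was too dim. Ccl2 had log2 levels of -2.26, -2.33 and -1.77 in normal Se GD spleens, -4.18, -2.95 and -2.39 in low Se GD spleens, and -3.09, -2.86 and -3.07 in low Se non-GD spleens. The normal Se GD arrays were above all 6 others, and the low Se GD arrays spanned the low Se non-GD ones. Its log2 fold change was 1.05 ± 0.41 (SE) between normal Se GD and low Se GD spleens, with an adjusted p of 0.214. Ccl8 and Ccl12 had overlapping groups in all 3 comparisons and adjusted p-values of 0.481 to 0.94.

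Ccl6 and Ccl9, adjacent genes whose products attract myeloid cells in mice, had their higher levels in diseased spleens. Ccl6 had log2 levels of -0.49, -0.62 and -0.33 in normal Se GD spleens, 0.25, -0.13 and -0.65 in low Se GD spleens, and -1.42, -2.05 and -1.73 in low Se non-GD spleens. Every diseased array lay above every non-diseased one. Ccl6 was 2.94-fold higher in low Se GD than in low Se non-GD spleens (log2 fold change 1.56 ± 0.25, adjusted p = 0.00423) and 2.38-fold higher in normal Se GD than in low Se non-GD spleens (1.25 ± 0.25, adjusted p = 0.00719). With low Se GD array 1 alone against the low Se non-GD arrays of its scan, the log2 fold change was 1.98 (adjusted p = 0.0613, the lone array taken to vary like the others). Ccl9 averaged -1.63 ± 0.37 in normal Se GD, -1.34 ± 0.38 in low Se GD and -2.11 ± 0.15 in low Se non-GD spleens (SD, n = 3 each), a log2 fold change of 0.77 between low Se GD and low Se non-GD spleens that missed the threshold (adjusted p = 0.0518). The next genes in the same cluster, Ccl3 and Ccl4, whose products are macrophage inflammatory proteins, had log2 fold changes of -0.15 and 0.07 in that comparison, with overlapping groups.

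Macrophage markers moved in the same comparisons. Of 8 monocyte and macrophage markers tested, 4 were higher, among them Adgre1, Cd14 and Csf1r, and Itgam was lower in low Se GD than in low Se non-GD spleens, and of 7 red pulp macrophage markers 4 were higher and 0 lower. The shares of all genes there were 12.8% higher and 12.2% lower. The mean level of the 8 markers ran from 0.87 to 0.95 in normal Se GD, 0.62 to 0.78 in low Se GD and 0.04 to 0.46 in low Se non-GD spleens, and all 8 were well above background on all arrays. Fat tissue markers had means of -4.22 to -3.96 in normal Se GD, -1.45 to 1.17 in low Se GD and -4.72 to -1.87 in low Se non-GD spleens. Low Se GD array 2 and low Se non-GD array 3 lay between the others of their groups for most genes. Within each of those groups Ccl6 and the fat markers had the same order. Among the normal Se GD arrays their orders differed. The part of these marker lists in the levels of Ccl6 was not tested.

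Ccl24, a ligand of the eosinophil receptor Ccr3, followed the same split between diseased and non-diseased spleens. Its log2 levels were -1.82, -1.64 and -2.08 in normal Se GD, -1.96, -1.89 and -1.88 in low Se GD and -2.50, -3.19 and -2.91 in low Se non-GD spleens. The 6 diseased arrays all lay above the non-diseased ones. Ccl24 was 1.94-fold higher in low Se GD (log2 fold change 0.96 ± 0.19, adjusted p = 0.00894) and 2.03-fold higher in normal Se GD than in low Se non-GD spleens (1.02 ± 0.19, adjusted p = 0.00518). With the scan as a block the second call was lost (adjusted p = 0.08). Ccl11, another Ccr3 ligand, had overlapping groups in all 3 comparisons, with log2 fold changes of 0.12 to 0.26.

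The ligands that position cells within lymphoid tissue moved in both directions. Cxcl13, which draws B cells into follicles through Cxcr5, had log2 levels of 3.30, 3.37 and 2.91 in normal Se GD, 2.59, 2.75 and 2.82 in low Se GD and 3.26, 3.89 and 3.64 in low Se non-GD spleens. The low Se GD arrays lay below those of both other groups. In low Se GD spleens Cxcl13 fell by 0.88 ± 0.19 on the log2 scale relative to low Se non-GD spleens (adjusted p = 0.013), a call lost without low Se non-GD array 3. Within the scan that held 2 arrays of each group Cxcl13 was higher in normal Se GD than in low Se GD spleens, with a log2 fold change of 0.55 (adjusted p = 0.0396).

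Ccl19, the T zone ligand of Ccr7, had levels of 2.12, 2.23 and 2.24 in normal Se GD, 0.99, 1.18 and 1.30 in low Se GD and 1.38, 2.18 and 1.83 in low Se non-GD spleens. Again the low Se GD arrays were the lowest. Ccl19 fell by 0.64 ± 0.19 on the log2 scale in low Se GD relative to low Se non-GD spleens (adjusted p = 0.0466), and the call was lost under 14 of 25 alternatives. Between normal Se GD and low Se GD spleens its log2 fold change was 1.04 ± 0.19 (adjusted p = 0.0521), and within the scan that held 2 arrays of each group it was higher in normal Se GD, at 0.94 (adjusted p = 0.0357). Of 2 further probes for Ccl19, 1 gave -0.68 and 0.84 and the other -0.40 and -0.10 in these 2 comparisons. B cell markers had their lowest levels in the same group, with means of 2.17 to 2.44 in normal Se GD, 1.73 to 1.77 in low Se GD and 2.15 to 2.32 in low Se non-GD spleens. In low Se GD relative to low Se non-GD spleens 4 of 8 were lower and 0 higher, against 12.2% and 12.8% of all genes. All 8 were well above background on all arrays. Reticular stroma markers had means of 0.88 to 0.99 in normal Se GD, 0.59 to 0.80 in low Se GD and 0.75 to 0.77 in low Se non-GD spleens. The part of either list in Cxcl13 and Ccl19 was not tested.

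Cxcl12, made by stromal and endothelial cells and bound by Cxcr4, went the other way. Its log2 levels were 2.08, 1.98 and 2.69 in normal Se GD, 2.68, 2.41 and 2.18 in low Se GD and 1.55, 0.73 and 1.20 in low Se non-GD spleens. All diseased arrays were above all non-diseased ones. Cxcl12 was 2.40-fold higher in low Se GD (log2 fold change 1.26 ± 0.27, adjusted p = 0.0122) and 2.13-fold higher in normal Se GD than in low Se non-GD spleens (1.09 ± 0.27, adjusted p = 0.0166). The second call was lost with the scan as a block (adjusted p = 0.0814), without low Se non-GD array 2 and without low Se non-GD array 3. A second probe gave 0.73 and 0.75. Of 6 endothelial markers, 2 were higher and 0 lower in low Se GD and 4 were higher and 0 lower in normal Se GD than in low Se non-GD spleens. The shares of all genes were 12.8% and 12.2%, and 18.9% and 13.4%, in that order. The endothelial means were 0.84 to 1.07 in normal Se GD, 0.87 to 0.94 in low Se GD and 0.06 to 0.52 in low Se non-GD. Of 9 reticular stroma markers, 1 was higher and 1 lower in low Se GD than in low Se non-GD spleens. In normal Se GD relative to low Se non-GD spleens 2 of these were higher and 1 lower. The order of the fat tissue markers was that of Cxcl12 within the low Se GD and within the low Se non-GD arrays. In those groups low Se GD array 2 and low Se non-GD array 3 lay between the others for most genes. Within the normal Se GD arrays the orders of Cxcl12 and the fat tissue markers differed. The part of any of these lists in Cxcl12 was not tested.

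Ccl25, the ligand of the gut-homing receptor Ccr9, had 3 groups that did not overlap, lowest with disease and a normal supply. It had log2 levels of -1.79, -1.94 and -1.62 in normal Se GD, -1.24, -1.26 and -1.40 in low Se GD and -1.09, -0.83 and -0.99 in low Se non-GD spleens. The non-diseased arrays were the highest. Ccl25 fell by 0.82 ± 0.12 on the log2 scale in normal Se GD relative to low Se non-GD spleens (adjusted p = 0.00232). The steps of -0.48 between normal Se GD and low Se GD and -0.34 between low Se GD and low Se non-GD spleens missed the threshold (adjusted p = 0.0865 and 0.0786). A second probe was well above background on 3 arrays only, and the mean of both gave no call. Ccr9 itself had values of -0.46 and -0.65 on 2 normal Se GD arrays, -0.87 and -1.18 on 2 low Se GD arrays and -1.52, -1.17 and -1.40 in low Se non-GD spleens. With marked spots kept, Ccr9 had a log2 fold change of 1.11 between normal Se GD and low Se non-GD spleens (adjusted p = 0.0123). The mucosal ligands Ccl28 and Cxcl14 were close to background, with overlapping groups, and Ccl20 was below it.

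The neutrophil attractant Cxcl1 had the largest change of the 37 genes. Its log2 levels were -1.77, -2.27 and -4.20 in normal Se GD, -2.20, -2.50 and -2.83 in low Se GD and 0.31, 1.33 and 0.71 in low Se non-GD spleens. The third normal Se GD array was not well above background, and the 3 low Se non-GD arrays stood far above the other 6. Cxcl1 fell by 3.30 ± 0.59 on the log2 scale in low Se GD (adjusted p = 0.00667) and fell by 3.53 ± 0.59 in normal Se GD relative to low Se non-GD spleens (adjusted p = 0.00379). The second call held under all 23 alternatives that gave a value and the first under 22 of 24. Cxcl5, which uses the same receptor, had overlapping low Se GD and low Se non-GD groups, with a log2 fold change of -0.11 (adjusted p = 0.8). Cxcl2 was too dim for a test.

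Of 10 control spots that carry viral E1A sequences, 4 had all low Se non-GD arrays above all diseased ones and the other 6 had overlapping groups. What the spots bound is not known. Of the 4, the spot a107 is described here, chosen after its values were seen. Its log2 levels were 2.36, 1.42 and 0.82 in normal Se GD spleens, 2.51, 1.69 and 1.002 in low Se GD spleens, and 4.72, 5.84 and 5.34 in low Se non-GD spleens. Cxcl1 and the spot had the same order of arrays within each of the 3 groups. Low Se GD array 2 and low Se non-GD array 3 were the middle arrays for 69% and 78.3% of genes above background on all arrays. The same middle array within those groups is therefore common among genes. In normal Se GD, array 2 was the middle array for 37.6% of these genes. How often genes share a full order of arrays was not counted. Neutrophil markers had means of 3.34 to 3.67 in normal Se GD, 3.40 to 3.51 in low Se GD and 3.16 to 3.59 in low Se non-GD spleens. The part of what the spot bound, or of neutrophils, in the difference of Cxcl1 was not tested.

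**Figure D3:**
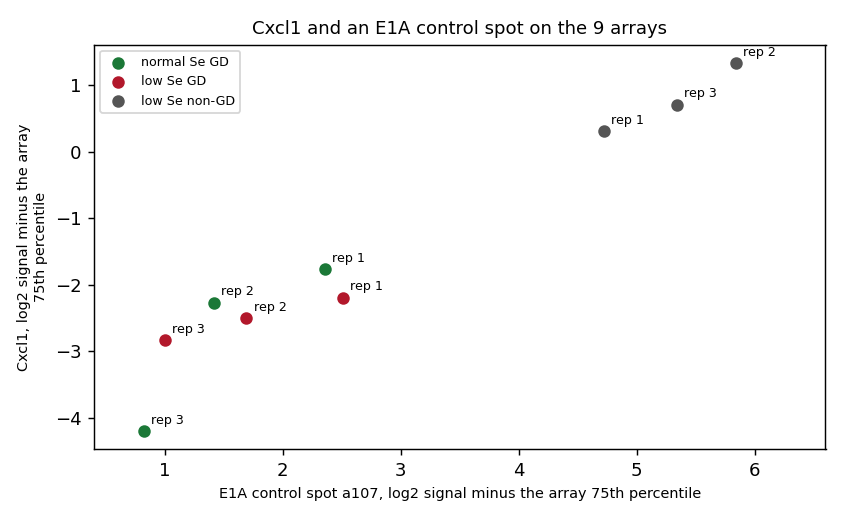
Each point is 1 of 9 arrays, with the log2 level of an E1A control spot on the horizontal axis and that of Cxcl1 on the vertical axis, coloured by group. The 3 low Se non-GD arrays lie at the upper right, between 4.72 and 5.84 for the control spot, and the 6 diseased arrays at the lower left, between 0.82 and 2.51.

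The interferon-induced ligands were highest in diseased spleens on a normal supply. Cxcl10, whose promoter above holds both the interferon response core and the kappaB motif, had log2 levels of 1.60, 1.32 and 2.02 in normal Se GD, -0.18, 0.79 and 1.20 in low Se GD and -0.32, -0.55 and -0.47 in low Se non-GD spleens. The 3 groups did not overlap, and the low Se GD array scanned with the non-diseased ones lay next to them. Cxcl10 was 4.27-fold higher in normal Se GD than in low Se non-GD spleens (log2 fold change 2.09 ± 0.34, adjusted p = 0.00327). With the scan as a block the change was 0.74 and was not called (adjusted p = 0.102). Between low Se GD and low Se non-GD spleens the log2 fold change was 1.05 ± 0.34 (adjusted p = 0.056), and 0.27 with low Se GD array 1 alone in its scan.

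Cxcl9 had levels of 1.05, 1.08 and 1.45 in normal Se GD, -0.25, 0.39 and 0.69 in low Se GD and 0.07, 0.14 and 0.08 in low Se non-GD spleens. The normal Se GD arrays lay above the other 6, and the other groups overlapped. Cxcl9 was 2.14-fold higher in normal Se GD than in low Se non-GD spleens (log2 fold change 1.1 ± 0.23, adjusted p = 0.00946), and a second probe gave 0.81. With the scan as a block the change was 0.18 (adjusted p = 0.462). Between normal Se GD and low Se GD spleens, Cxcl9 and Cxcl10 had log2 fold changes of 0.92 ± 0.23 and 1.04 ± 0.34 that missed the threshold (adjusted p = 0.0892 and 0.15).

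Of the membrane-bound ligands and the C chemokine, Xcl1, which natural killer and T cells release and which attracts cross-presenting dendritic cells through Xcr1, was called in 1 comparison. Its log2 levels were -1.45, -1.44 and -1.27 in normal Se GD, -2.97, -2.26 and -1.89 in low Se GD and -3.07, -2.89 and -3.09 in low Se non-GD spleens. The normal Se GD arrays were all highest, and low Se GD array 1 lay within the non-diseased range. Xcl1 was 3.10-fold higher in normal Se GD than in low Se non-GD spleens (log2 fold change 1.63 ± 0.25, adjusted p = 0.00256). With the scan as a block that change was 0.68 (adjusted p = 0.0788). Natural killer cell markers were higher for 6 of 7 genes and lower for 0 in the same comparison, against 18.9% and 13.4% of all genes. These markers had means of -0.54 to -0.34 in normal Se GD, -0.53 to -0.44 in low Se GD and -1.37 to -1.08 in low Se non-GD spleens. Their part in Xcl1 was not tested.

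Cx3cl1, the membrane-bound ligand of Cx3cr1, had log2 levels of -2.83, -2.99 and -2.72 in normal Se GD, -3.06, -3.08 and -3.17 in low Se GD and -3.65, -3.35 and -3.59 in low Se non-GD spleens. The 3 groups did not overlap. It was 1.61-fold higher in normal Se GD than in low Se non-GD spleens (log2 fold change 0.69 ± 0.12, adjusted p = 0.00401, and 0.0594 with the scan as a block). The change of 0.43 ± 0.12 in low Se GD relative to low Se non-GD spleens (adjusted p = 0.032) lost its call under 15 of 25 alternatives. Cxcl16, the ligand of Cxcr6, had levels of 0.15, 0.09 and 0.42 in normal Se GD, -0.49, -0.30 and -0.15 in low Se GD and 0.27, 0.20 and 0.23 in low Se non-GD spleens. Only the low Se GD arrays were below 0. Cxcl16 fell by 0.55 ± 0.13 on the log2 scale in low Se GD relative to low Se non-GD spleens (adjusted p = 0.0178). That call was lost without low Se non-GD array 3, without low Se GD array 2 and when arrays were scaled by their medians, which put the median of all genes in this comparison at 0.18 in place of 0.08.

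**Figure D4:**
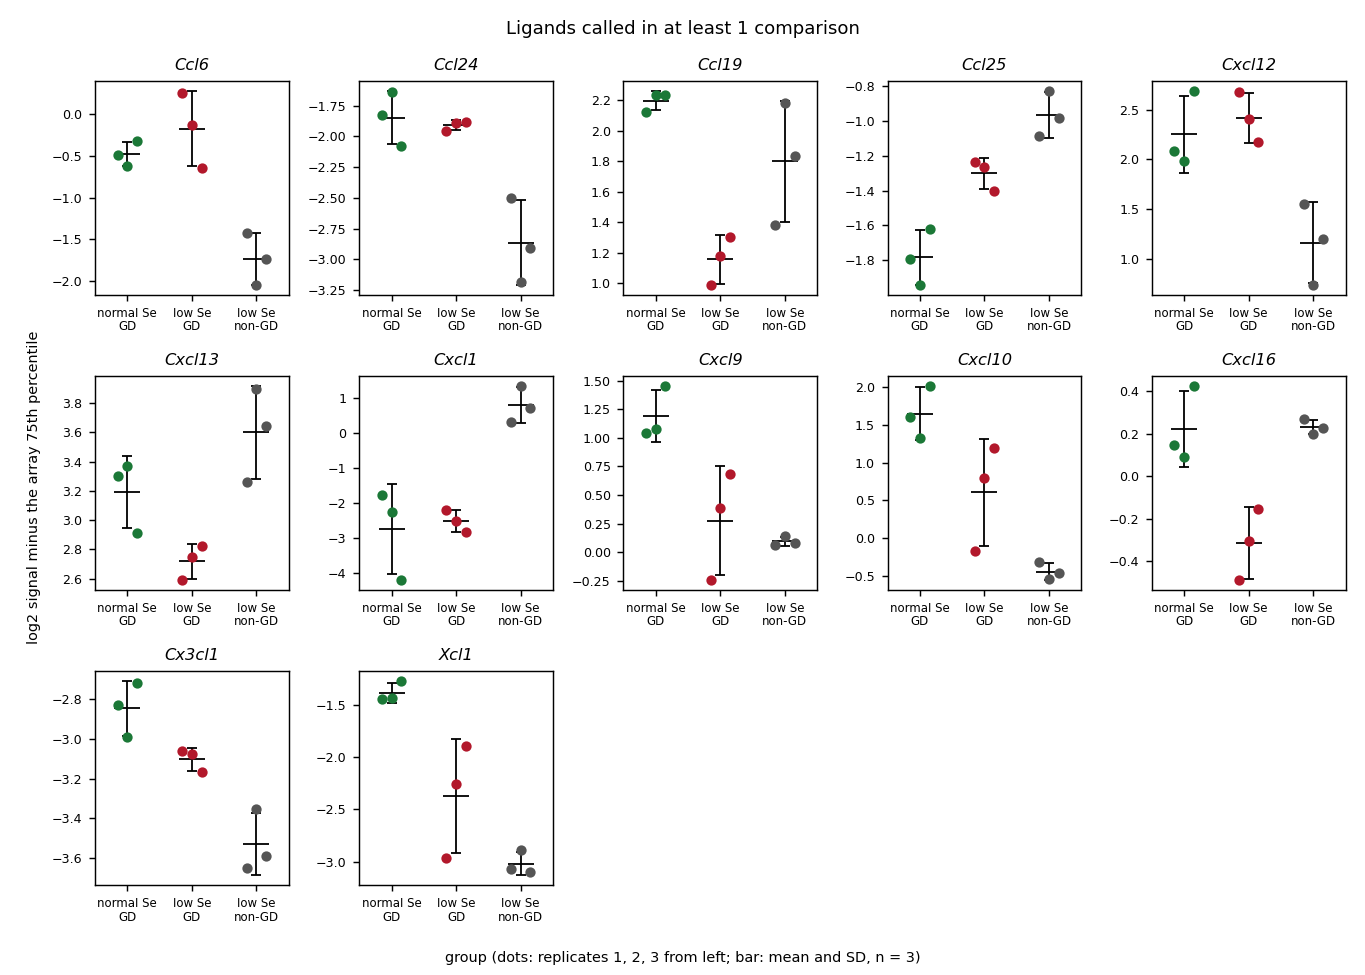
Log2 levels of the 12 ligands called in at least 1 comparison, with 1 panel per gene and its own vertical scale. Dots are replicates 1, 2 and 3 from left to right, bars show the mean and SD of 3 arrays, and groups run normal Se GD, low Se GD, low Se non-GD. Ccl19, Cxcl13 and Cxcl16 have their lowest values in low Se GD spleens, and Cxcl9, Cxcl10 and Xcl1 their highest in normal Se GD spleens.

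Among myeloid receptors, Ccr2, which brings monocytes out of the bone marrow, was called in both comparisons with non-diseased spleens. Its log2 levels were -0.19, -0.17 and -0.27 in normal Se GD, -0.71, -0.48 and -0.33 in low Se GD and -1.16, -1.01 and -1.1 in low Se non-GD spleens. The 3 groups did not overlap. Ccr2 was 1.5-fold higher in low Se GD (log2 fold change 0.58 ± 0.12, adjusted p = 0.00947) and 1.84-fold higher in normal Se GD than in low Se non-GD spleens (0.88 ± 0.12, adjusted p = 0.00162). The second call held under all 24 alternatives, and the first was lost under 2 of 25, within 1 scan (0.38, adjusted p = 0.125) and without low Se non-GD array 3 and low Se GD array 2.

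Ccr3, the eosinophil and basophil receptor and the neighbour of Ccr2 in the genome, had levels of -0.55, -0.50 and -1.04 in normal Se GD, -1.11, -0.53 and -0.27 in low Se GD and -1.37, -2.83 and -1.96 in low Se non-GD spleens. Diseased arrays were all above the non-diseased ones, which spread widely. Ccr3 was 2.67-fold higher in low Se GD (log2 fold change 1.42 ± 0.38, adjusted p = 0.0304) and 2.56-fold higher in normal Se GD than in low Se non-GD spleens (1.36 ± 0.38, adjusted p = 0.029). Both calls were lost with the scan as a block (0.95 and 0.82, adjusted p = 0.231 and 0.424) and without either low Se non-GD array 2 or 3. They were lost too without low Se GD array 2 or 3 in the first comparison and without normal Se GD array 1 or 2 in the other. Of 7 eosinophil, basophil and mast cell markers, 2 were higher and 1 lower in low Se GD than in low Se non-GD spleens. The shares of all genes there were 12.8% and 12.2%. These markers had means of -2.87 to -2.76 in normal Se GD, -3.14 to -2.89 in low Se GD and -3.32 to -3.03 in low Se non-GD spleens, and their part in Ccr3 was not tested.

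Cxcr2, the neutrophil receptor for Cxcl1, Cxcl2 and Cxcl5, had log2 levels of -3.24, -2.40 and -2.84 in normal Se GD, -4.33, -3.84 and -3.92 in low Se GD and -3.64, -3.74 and -3.73 in low Se non-GD spleens. The normal Se GD arrays were above the other 6, and the low Se GD arrays were the lowest. Cxcr2 was 1.84-fold higher in normal Se GD than in low Se non-GD spleens (log2 fold change 0.88 ± 0.22, adjusted p = 0.0187). That call was lost with the scan as a block (0.43, adjusted p = 0.466) and without low Se non-GD array 2 or array 3. Against low Se GD spleens the log2 fold change was 1.21 ± 0.22 (adjusted p = 0.0504).

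The fractalkine receptor Cx3cr1, found on patrolling monocytes and other myeloid cells, gave a different answer with each of its 2 probes. The brighter probe had levels of 0.88, 0.82 and 1.27 in normal Se GD, 0.22, 0.56 and 0.61 in low Se GD and 0.91, 1.13 and 1.0 in low Se non-GD spleens. By this probe Cx3cr1 fell by 0.55 ± 0.16 on the log2 scale in low Se GD relative to low Se non-GD spleens (adjusted p = 0.0392), and the call was lost under 12 of 25 alternatives, among them each omission of a low Se GD or low Se non-GD array. The other probe had -1.84, -1.79 and -1.50 in normal Se GD, -2.72, -2.62 and -2.47 in low Se GD and -2.71, -2.77 and -2.80 in low Se non-GD spleens, with log2 fold changes over low Se non-GD spleens of 0.16 for low Se GD and 1.05 for normal Se GD spleens. The mean of both probes was higher in normal Se GD than in low Se non-GD spleens (0.51, adjusted p = 0.022), where the brighter probe gave -0.02. Ccr1 had overlapping groups in every comparison.

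Xcr1, the receptor for Xcl1 on cross-presenting dendritic cells, had levels of -1.75, -1.77 and -1.85 in normal Se GD, -3.70, -2.68 and -2.21 in low Se GD and -2.44, -2.65 and -2.57 in low Se non-GD spleens. The normal Se GD arrays lay above all others, and low Se GD array 1 was the lowest. Its log2 fold changes of 1.07 ± 0.33 against low Se GD and 0.76 ± 0.33 against low Se non-GD spleens missed the threshold (adjusted p = 0.131 and 0.114). Within its scan, low Se GD array 1 alone was lower than the low Se non-GD arrays (log2 fold change -1.14, called, with the lone array taken to vary like the others). Of 5 other markers of these dendritic cells, 4 were higher in normal Se GD than in low Se non-GD spleens, where 18.9% of all genes were higher.

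Of 5 lymphoid homing receptors tested, Ccr6 was the 1 called, in a single comparison. Ccr6, carried by mature B cells and some T cells, had log2 levels of 3.73, 3.76 and 3.93 in normal Se GD, 3.35, 3.42 and 3.41 in low Se GD and 3.77, 4.19 and 3.98 in low Se non-GD spleens. The low Se GD arrays were below the other 6, as with Cxcl13 and the B cell markers. Ccr6 fell by 0.59 ± 0.12 on the log2 scale in low Se GD relative to low Se non-GD spleens (adjusted p = 0.012), a call lost without low Se non-GD array 3 and with arrays scaled by their medians. Cxcr5, the follicular receptor of Cxcl13, had a log2 fold change of -0.29 ± 0.11 there (adjusted p = 0.09). Cxcr4, the receptor of Cxcl12, had levels of 1.84, 1.48 and 2.06 in normal Se GD, 2.89, 2.38 and 1.71 in low Se GD and 1.38, 1.62 and 1.49 in low Se non-GD spleens. The low Se GD arrays were above the low Se non-GD ones, at a log2 fold change of 0.83 ± 0.29 that missed the threshold (adjusted p = 0.0701). Ccr7 and Ccr10 were not called in any comparison, with log2 fold changes of -0.45 to 0.00.

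Of the receptors of effector and regulatory T cells, Cxcr3, the receptor for Cxcl9 and Cxcl10, had log2 levels of 0.79, 0.82 and 1.17 in normal Se GD, 0.49, 0.48 and 0.46 in low Se GD and 0.02, 0.42 and 0.26 in low Se non-GD spleens. The 3 groups did not overlap. Cxcr3 was 1.62-fold higher in normal Se GD than in low Se non-GD spleens (log2 fold change 0.69 ± 0.14, adjusted p = 0.00838), and 0.60 with the scan as a block (adjusted p = 0.0961). Cxcr6, which effector T cells and natural killer T cells carry, had levels of 0.42, 0.45 and 0.91 in normal Se GD, -0.39, -0.04 and 0.20 in low Se GD and -0.08, 0.09 and 0.06 in low Se non-GD spleens. The normal Se GD arrays were above the other 6. Cxcr6 was 1.49-fold higher in normal Se GD than in low Se non-GD spleens (log2 fold change 0.57 ± 0.19, adjusted p = 0.0491), and that call was lost under 13 of 24 alternatives and turned to -0.055 with the scan as a block. Ccr4 and Ccr8, found on regulatory and type 2 helper T cells, had log2 fold changes of 0.44 and 0.43 in this comparison (adjusted p = 0.0701 and 0.0727). T cell markers had means of 1.20 to 1.29 in normal Se GD, 1.09 to 1.40 in low Se GD and 0.76 to 1.52 in low Se non-GD spleens.

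**Figure D5:**
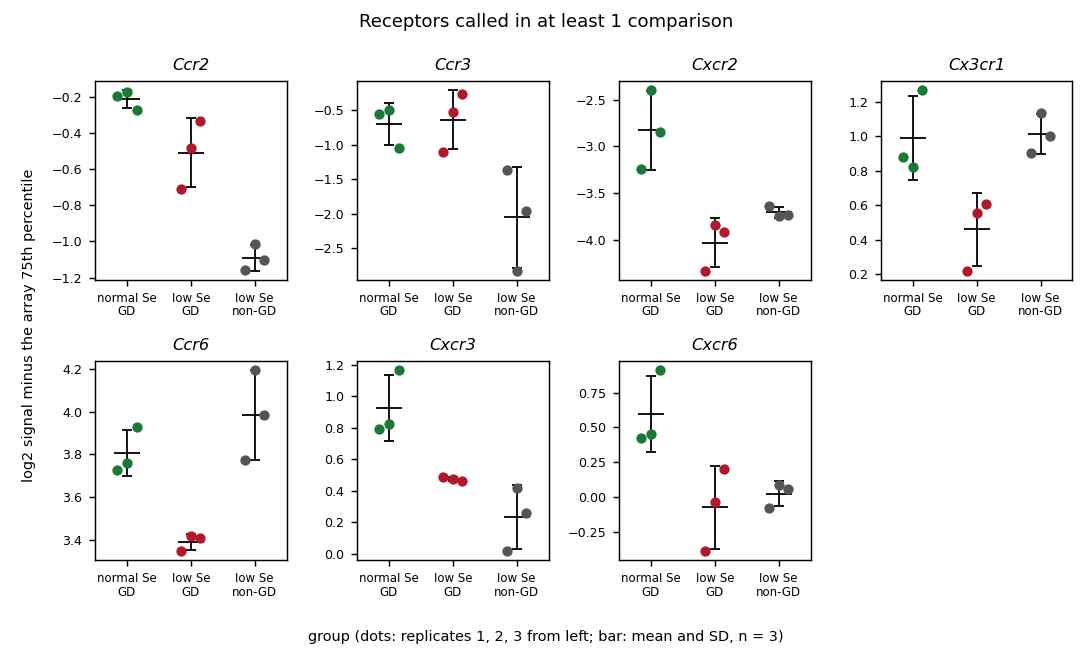
Log2 levels of the 7 receptors called in at least 1 comparison, with 1 panel per gene and its own vertical scale. Dots are replicates 1, 2 and 3 from left to right, bars show the mean and SD of 3 arrays, and groups run normal Se GD, low Se GD, low Se non-GD. Ccr2 and Cxcr3 have groups in descending order, while Cx3cr1 and Ccr6 have their lowest values in low Se GD spleens.

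Further members of the chemokine family, 19 of 24 of them tested, were called 5 higher and 2 lower in low Se GD relative to low Se non-GD, 2 and 0 in normal Se GD against low Se GD and 5 and 1 in normal Se GD against low Se non-GD spleens. These were 36.8%, 10.5% and 31.6% of those tested, against 24.9%, 1.27% and 32.3% of all genes. The scavenging receptor Ackr4, which clears Ccl19 and Ccl25, fell by 3.14 ± 0.27 on the log2 scale in low Se GD and fell by 3.08 ± 0.27 in normal Se GD relative to low Se non-GD spleens (adjusted p = 0.000563 and 0.000478). Ackr3, a scavenging receptor for Cxcl12, was higher in both, by 0.82 and 0.73. The Ccr4 ligand Ccl22 was higher in normal Se GD than in low Se GD spleens, with a log2 fold change of 0.81 ± 0.13 (adjusted p = 0.0438). That call was lost with median scaling, with only the 2 groups compared and with a replicate block, where 0 genes were called in all. The platelet chemokines Ppbp and Pf4 were higher in low Se GD than in low Se non-GD spleens by 1.19 and 0.62.

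Of 53 genes that carry chemokine receptor signals, 9 were higher and 6 lower in low Se GD relative to low Se non-GD, 0 and 0 in normal Se GD against low Se GD and 14 and 2 in normal Se GD against low Se non-GD spleens, with medians of 0.09, 0.15 and 0.22. Both directions together made 28.3%, 0% and 30.2% of those tested, near the shares of all genes in the outer comparisons (24.9% and 32.3%). For the 14 higher and 2 lower in the last comparison, the shares of all genes were 18.9% and 13.4%. Rgs16, which shortens G protein signals, fell by 3.02 ± 0.53 on the log2 scale in low Se GD relative to low Se non-GD spleens, and the receptor kinase Grk3 was higher by 0.71. Dock2 and Elmo1, partners that switch on Rac in migrating lymphocytes, fell by 0.87 and fell by 1.35. Among 29 tested cytokines, receptors and regulators that induce chemokines, 4 were higher and 3 lower, 0 and 0, and 9 and 1, with medians of -0.05, 0.37 and 0.38. Both directions together made 24.1%, 0% and 34.5% of those tested, again near the shares of all genes in the outer comparisons. The 9 higher and 1 lower in the last comparison stand beside 18.9% and 13.4% of all genes. Irf7, a driver of interferon responses, exceeded its low Se non-GD level by 2.37 ± 0.44 in low Se GD and by 3.24 ± 0.44 in normal Se GD spleens. The interferon receptor chain Ifnar1 fell by 3.04 and fell by 3.0 in these comparisons, whereas the chain Ifnar2 was higher by 0.59 and 0.46 (adjusted p = 0.00297 and 0.00572). Lta, a lymphotoxin that maintains stromal Cxcl13 and Ccl19, fell by 1.03 ± 0.19 in low Se GD relative to low Se non-GD spleens (adjusted p = 0.00742). Ltb and Ltbr of the same list were not called there (log2 fold changes of -0.25 and -0.21, adjusted p = 0.274 and 0.118). The part of Lta in Cxcl13 and Ccl19 was not tested.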

How the data were processed

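Gene expression in 9 spleen samples was measured on Agilent 1-colour mouse arrays (design 026655). Each deposited scanner file gives the processed intensity of every spot, as Feature Extraction (version 11.0.1.1 in the file headers) wrote it. The well-above-background and outlier marks (0 or 1) come from the same files. The authors' deposited table of log2 values served as an alternative only. No source used here tells how it was made or centred, and its 9 columns hold 1 common distribution. Its 3 low Se non-GD columns matched another array of their group best (0.9973 to 0.9976, against 0.9796 to 0.9866 for their own array), so replicate numbers of that group are uncertain.

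Groups and replicate numbers came from the labels. Log2 processed signals minus the array's 75th percentile over 43020 non-control spots were used, 1377 control spots and spots with an outlier mark were left out, and each gene was represented by its probe with the highest mean. Accessions named 27234 of 39429 probes through a GRCm38.p6 table. Genes well above background on at least 3 of 9 arrays entered 1 limma fit of all 9 arrays (version 3.58.1, R 4.3.3, moderated by eBayes, 2-sided, 6 residual and 1.81 prior degrees of freedom), with Benjamini-Hochberg adjustment over 26325 genes and a threshold of 0.05. The fit was tested on simulated data. In the text, ± after a fold change is its SE and ± after a mean is the SD over 3 arrays. The number of arrays limits the precision. Slides were not told apart in the headers, so arrays were grouped by scan time. The files hold a median signal in place of the mean signal, and normexp was run on that (offset 50). The genes, lists, role groups and alternatives were chosen with earlier results of these data known. Genes were named in full where called in at least 1 comparison, and of each list up to 6 per comparison were eligible by size of change. Ltb and Ltbr, which were not called, are given beside Lta. Some genes of the lists are counted but not reported by name here.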

Additional observations from a re-analysis of the deposited data

How the results depend on the processing

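Counts of chemokines and receptors called moved with the arrays in the fit more than with the scaling. For low Se GD relative to low Se non-GD spleens (6 higher, 6 lower), the counts were 1 and 1 within 1 scan, 0 and 0 without low Se non-GD array 3 and low Se GD array 2 (a choice made after seeing the data), and 11 and 7 without normal Se GD array 3 and low Se GD array 1 (likewise). The last 2 of these fits called 1.02% and 44.4% of all genes. With arrays scaled by their medians 2 were lower, where 23.7% of all genes were called. Leaving out 1 array gave 4 to 8 higher and 1 to 7 lower, with 3 lower without low Se GD array 2 and 1 without low Se non-GD array 3. Those omissions called 13.1% to 41% of all genes. For normal Se GD against low Se GD spleens (0 and 0), 5 were higher and 1 lower over genes above background on all 9 arrays, 3 were higher with each probe a feature of its own, 2 with an intensity trend, 1 with the mean of probes, 1 with normexp and 2 within 1 scan. The shares called over everything tested were 6.95%, 2.18%, 2.05%, 1.38%, 1.79% and 10.6%, in that order. Leaving out 1 array gave 0 higher and 0 to 1 lower, with 1 without normal Se GD array 3, among 0% to 4.09% of all genes. For normal Se GD against low Se non-GD spleens the counts were 12 and 2. With the scan as a block 2 were higher, among 18.3% of all genes. Without low Se non-GD array 3 and low Se GD array 2, 3 were higher, among 11.6% of all genes. With the mean of probes 1 was lower, where 32.1% of all genes were called. Leaving out 1 array gave 8 to 16 higher and 2 to 3 lower, among 20.6% to 43.8% of all genes. The cause of these moves was not tested. Of single genes, Cx3cr1 turned to 0.51 with the mean of probes and Cxcr6 to -0.055 with the scan as a block, both in normal Se GD against low Se non-GD spleens.

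Over all genes the calls, 6556, 334 and 8514 in the 3 comparisons in the order above, were 269, 0 and 3043 without low Se non-GD array 3 and low Se GD array 2, and 11682, 1713 and 12857 without normal Se GD array 3 and low Se GD array 1. They were 947 and 2797 in the first and second within 1 scan and 4828 in the third with the scan as a block. The second was also 0 with median scaling, 1288 over genes above background on all arrays and 1713 with the scan as a block. Replicate numbers did not pair the arrays (correlations of deviations of -0.213 to 0.0991). With a replicate block 4, 0 and 11 of the chemokines and receptors were higher and 6, 0 and 2 lower. In all, 5150, 0 and 7186 genes were called there (19.6%, 0% and 27.3%). Leaving out 1 array gave 3448 to 10786, 0 to 1076 and 5415 to 11539. Ccl12, Ccl28 and Cxcl14 were well above background on only 5, 4 and 4 arrays. No scan held both normal Se GD and low Se non-GD arrays, so that comparison has no value within 1 scan.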
